A study of Rattus norvegicus with 4 samples.

Results

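The genotype difference in the response to angiotensin II (Ang II) was measured in rat vessels as the KO response minus the WT response. Each response is the Ang II array minus the control array of one genotype. The members are the 8602 of 16580 named genes that were well above background on all 4 arrays, each read by its brightest such probe. At the level of probes, 17413 of 45594 passed on all 4 arrays (38.2%), of which 10583 carry a gene name and 6830 do not. Another 1364 named genes passed on some of the arrays but not on all 4.

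RNA came from vessels of male rats, with 1 microarray in each of 4 groups. WT animals were Wistar rats, and KO animals were rats with a deletion of PKCbeta. WT control and KO control had no Ang II, and WT Ang II and KO Ang II had angiotensin II for 24 h. The labels name 4 rats of each genotype; they do not say whether RNA was pooled, which vessel was taken or how the deletion was made. With 1 array in each of 4 groups and 4 coefficients there were 0 residual degrees of freedom, so no value below has a p-value or a replicate check, and position on the slide cannot be told apart from group. The 75th percentile of the processed signal was 58.7 and 62.4 on the WT arrays (control, then Ang II) and 47.3 and 52.1 on the KO arrays in the same order, the share of probes well above background 40.7% to 43.6%, and the number of saturated spots 0.

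Ang II acts on vessel cells mainly through the AT1 receptor, which couples to phospholipase C and so raises calcium and diacylglycerol. These activate the conventional isoforms of protein kinase C, of which PKC beta is one. Ang II is known to contract smooth muscle, to raise NADPH oxidase activity and to induce cytokines and adhesion molecules in the vessel wall, in part through the transcription factor NF-kB. Type I and type II interferons, released in such inflammation, act through STAT and IRF proteins on genes with an interferon-stimulated response element (ISRE) near their start.

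Prkcb, the gene of PKC beta, checks the labels and is not among the 8602 genes. Its probe with 9 spots gave processed signals of 14.8 and 18.0 in WT (control, then Ang II) and 1.94 and 1.89 in KO. It was well above background on both WT arrays and on neither KO array. The other probe, with 1 spot, gave 8.27 and 12.2 in WT and 1.90 and 1.73 in KO, and was well above background on WT Ang II only. Both KO arrays were below both WT arrays on each probe. Whether the probes lie inside the deleted part was not given by the labels.

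Promoters are shown first for genes that carry the main pattern below, a level that stood apart on the WT Ang II array (Gbp5, Ifit3, Oas1a, Cxcl1, Il6), for Tap1, which was highest on that array too, and for Ankrd37, which was lowest on the KO control array. Each is the 200 bases before the gene's start, 5′ to 3′ along the gene, from RefSeq's GRCr8 assembly. Capitals mark matches to the ISRE (GAAANN followed by GAAA) on either strand in the promoters of the GTPase gene Gbp5 at chr2:233910799-233910998 (plus strand), the RNA-binding antiviral gene Ifit3 at chr1:241527126-241527325 (plus strand), the oligoadenylate synthetase Oas1a at chr12:41330266-41330465 (plus strand) and the antigen peptide transporter Tap1 at chr20:4668544-4668743 (minus strand). In the promoters of the neutrophil chemokine Cxcl1 at chr14:17479322-17479521 (minus strand) and the cytokine Il6 at chr4:5894576-5894775 (minus strand) they mark the NF-kB motif, and in that of the hypoxia-induced gene Ankrd37 at chr16:53001307-53001506 (plus strand) the hypoxia element ACGTG.
Gbp5: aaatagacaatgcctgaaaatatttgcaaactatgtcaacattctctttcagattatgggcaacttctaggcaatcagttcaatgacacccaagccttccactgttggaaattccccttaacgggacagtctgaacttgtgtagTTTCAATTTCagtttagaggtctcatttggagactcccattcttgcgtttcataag
Ifit3: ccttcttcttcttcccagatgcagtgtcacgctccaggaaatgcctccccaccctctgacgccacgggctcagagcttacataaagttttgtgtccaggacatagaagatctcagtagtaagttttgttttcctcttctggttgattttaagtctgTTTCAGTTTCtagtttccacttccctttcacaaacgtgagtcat
Oas1a: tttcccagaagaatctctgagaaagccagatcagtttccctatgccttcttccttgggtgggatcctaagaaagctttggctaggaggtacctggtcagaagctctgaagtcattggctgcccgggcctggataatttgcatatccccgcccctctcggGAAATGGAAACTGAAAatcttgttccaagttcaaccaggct
Tap1: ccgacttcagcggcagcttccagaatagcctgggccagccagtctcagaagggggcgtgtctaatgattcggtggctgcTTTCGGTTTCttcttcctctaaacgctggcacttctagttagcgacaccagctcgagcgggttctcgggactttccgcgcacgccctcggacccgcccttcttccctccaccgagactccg
Cxcl1: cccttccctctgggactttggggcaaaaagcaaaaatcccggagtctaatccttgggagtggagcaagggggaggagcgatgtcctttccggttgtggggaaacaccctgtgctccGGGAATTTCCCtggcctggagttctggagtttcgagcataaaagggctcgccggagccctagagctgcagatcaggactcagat
Il6: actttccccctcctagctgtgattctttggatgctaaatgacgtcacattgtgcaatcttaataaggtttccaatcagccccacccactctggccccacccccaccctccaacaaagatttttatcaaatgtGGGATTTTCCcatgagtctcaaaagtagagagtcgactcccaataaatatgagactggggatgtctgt
Ankrd37: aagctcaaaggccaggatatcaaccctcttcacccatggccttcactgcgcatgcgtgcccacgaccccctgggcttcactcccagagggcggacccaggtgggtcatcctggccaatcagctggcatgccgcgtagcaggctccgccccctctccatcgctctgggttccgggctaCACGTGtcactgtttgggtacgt

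Levels are given on a log2 scale on which 0 is the 75th percentile of the array, always in the order WT control, WT Ang II, KO control, KO Ang II. A difference of responses is in log2 units, and it is negative where the change from control to Ang II was lower in KO than in WT. Its technical error, propagated from the scanner's error of each spot, had a median of 0.29 and does not include any variation between animals. Over all 8602 genes the WT response had a median of 0.04 and an SD of 0.35 across genes, and the KO response a median of -0.01 and an SD of 0.26. The difference had a median of -0.05 and an SD of 0.45, and lay above 0 in 44.0% of genes.

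A difference of 2-fold or more was found in 356 genes, 4.14% of those measured. It was lower in KO in 247 (2.87%) and higher in KO in 109 (1.27%). In the same genes the WT response alone passed 2-fold upwards in 97 (1.13%) and downwards in 30 (0.349%), and the KO response in 10 (0.116%) and 40 (0.465%). These comparisons share arrays, since each response contains its genotype's control array. The genes just inside the threshold were Oasl2 at -1.0004 and Metrn at -1.0011 on the lower side and Alg5 at 1.0022 on the higher side, and those just outside were Tnfrsf1b at -0.9987, Il11 at -0.9981 and RT1-Da at 0.9977.

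The origin of a difference was read from the share that the WT response contributed. A WT share of 66.7% or more was counted as coming from WT, one of 33.3% or less as coming from KO, and one between as coming from both, which for these genes means responses in opposite directions. By this count 175 of the 356 differences came from the WT response, 46 from the KO response and 135 from both. Among the 247 lower in KO the split was 129, 32 and 86, and among the 109 higher in KO it was 46, 14 and 49. The 32 lower differences of KO origin had a median KO response of -1.25 and a median WT response of 0.15, while the 129 of WT origin had medians of -0.24 and 1.03.

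**Figure D1:**
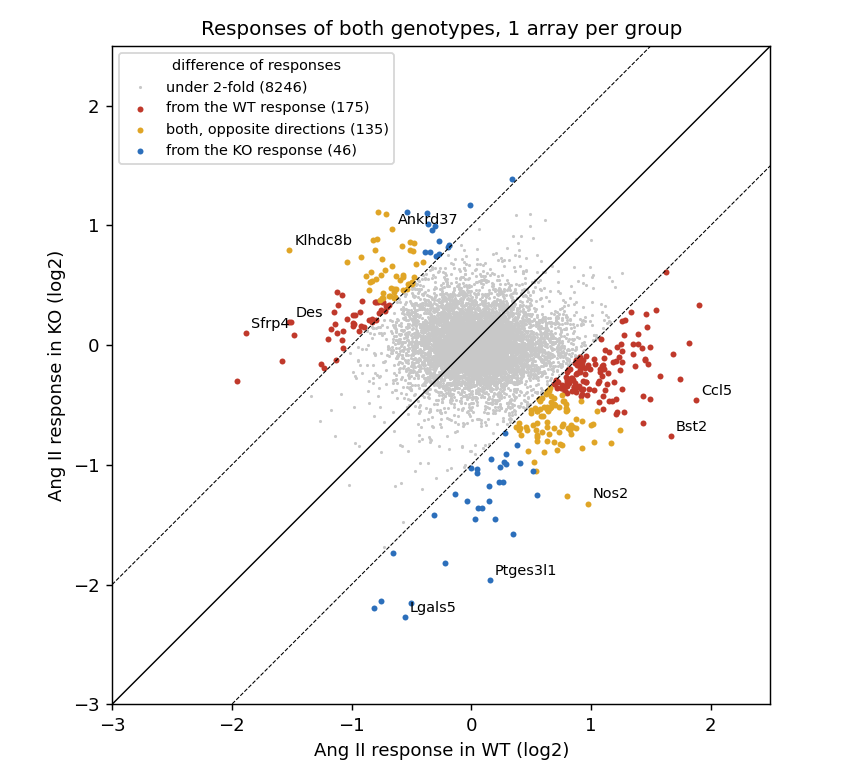
Ang II response in WT (horizontal axis, log2) against that in KO (vertical axis, log2) for 8602 genes, with 1 array per group. The solid line marks equal responses and the dashed lines a 2-fold difference; 175 coloured genes lie past them through the WT response, 135 through both and 46 through the KO response.

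Origin alone does not separate a response from an odd control array, so each gene was also read for an array that stood apart. An array stood apart if its gap to the nearest of the other 3 was at least the range of those 3 and at least 1.5-fold. The WT Ang II array stood apart in 76 of the 356 genes, the WT control array in 43, the KO control array in 32 and the KO Ang II array in 14, and none did in 191. Of the 76, the WT Ang II array was high in 63, all lower in KO, and low in 13, all higher in KO. Of the control arrays, WT control was low in 24 genes and high in 19, and KO control was high in 17 and low in 15. In those genes the array that stood apart was one without Ang II. With 1 array per group, a true group difference and one odd array cannot be told apart, for the WT Ang II array as for the controls.

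**Figure D2:**
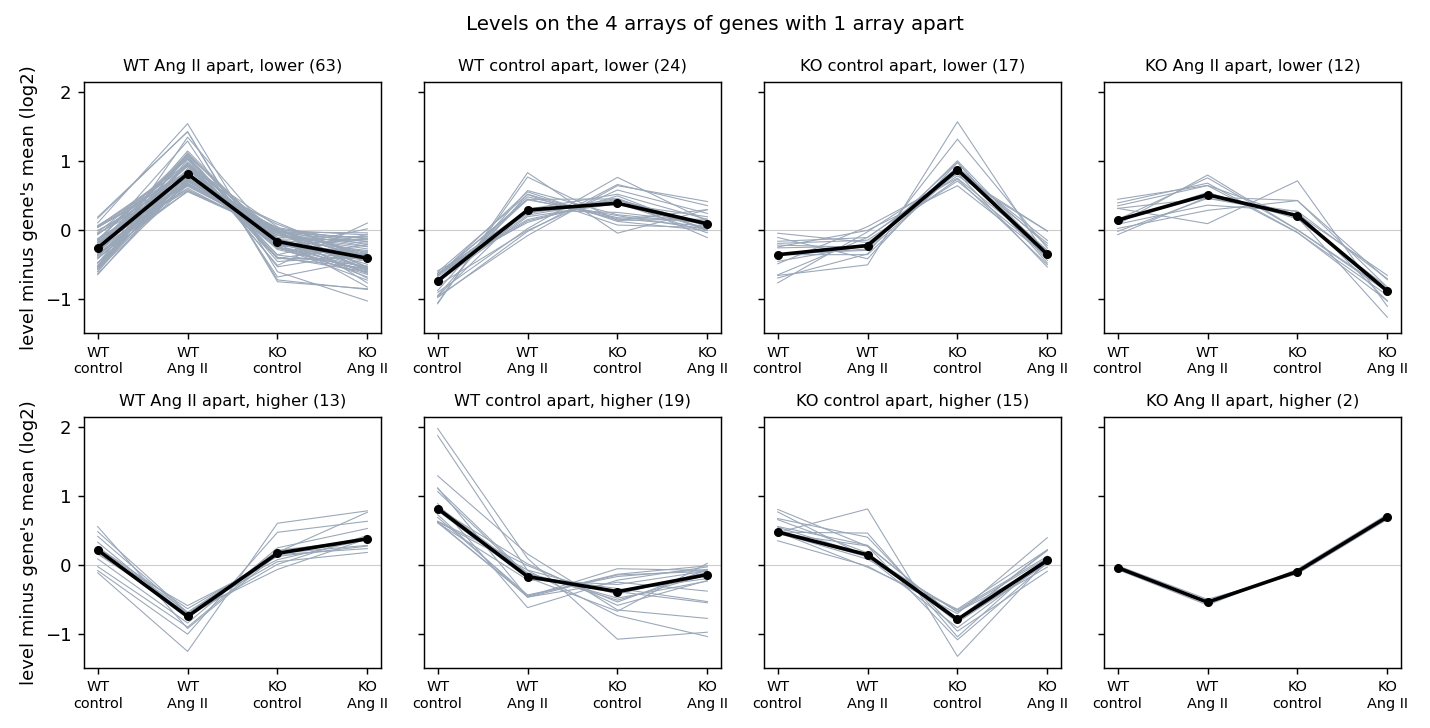
Level of each gene minus its mean over the 4 arrays (vertical axis, log2) on each of the 4 arrays (horizontal axis), for genes past 2-fold with 1 array apart; the upper row holds differences lower in KO and the lower row those higher in KO, thin lines are genes and the thick line their median. The WT Ang II array is the high point in 63 genes and the KO control array in 17.

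Signal set these patterns apart as well. The genes were split by mean signal into 4 bins of equal size. In the dimmest bin 8.41% passed 2-fold, against 3.67%, 2.33% and 2.14% in the bins above it. The dimmest bin held 34 of the 46 differences of KO origin and 84 of the 135 of both, but 63 of the 175 of WT origin. The KO Ang II array stood apart in 11 genes of that bin, 3 of the next and 0 of the brighter bins. In the brightest bin 36 of 46 differences came from the WT response. With normexp, another background correction, run with an offset of 50 added to each signal, 50 genes were lower and 20 higher in KO by 2-fold or more. Mean signals in the dimmest bin were 9.98 to 48.3. An added constant shrinks the log2 ratios of dim genes most, so low signal alone can end a call under normexp. Of the genes with the WT Ang II array apart, 26 of 63 lower and 1 of 13 higher ones still passed, and with the WT control array apart 10 of 24 and 4 of 19. With the KO control array apart 0 of 17 and 3 of 15 passed, and with the KO Ang II array apart 0 of 14. The dimmest bin held 23 of the 32 genes with KO control apart and 11 of the 14 with KO Ang II apart. It held 26 of the 76 with WT Ang II apart and 15 of the 43 with WT control apart. The normexp counts therefore cannot separate the pattern from the signal.

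**Figure D3:**
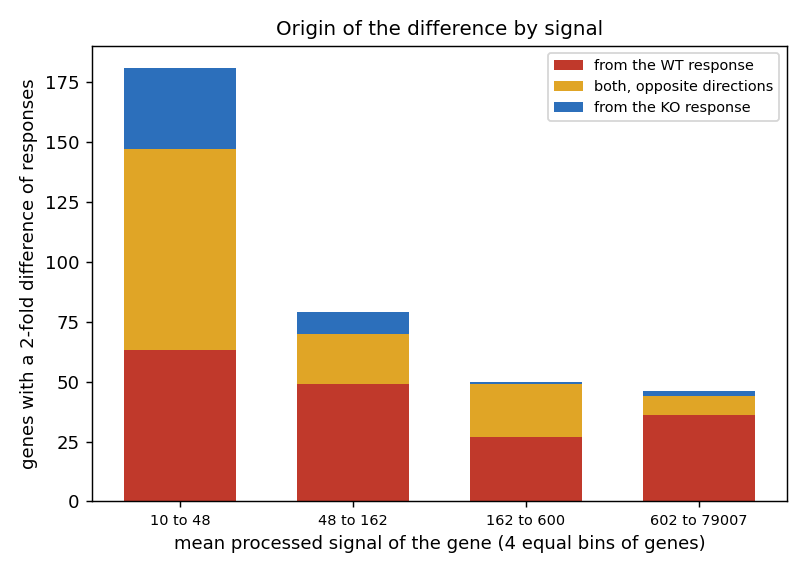
Number of genes with a 2-fold difference of responses (vertical axis) by mean processed signal in 4 equal bins (horizontal axis), stacked by origin. The dimmest bin holds 34 of 46 genes of KO origin, and the brightest 36 of WT origin out of 46 in all.

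A second probe was measured for 40 of the 356 genes, and it had the same sign in 33 and passed 2-fold in 14. For genes with the WT Ang II array apart the sign was the same in 8 of 8 and 4 passed 2-fold, and with the WT control array apart 6 of 6 had the same sign and all 6 passed. Of 5 genes with the KO control array apart, 4 had the same sign and 1 passed. With no array apart 14 of 20 had the same sign and 3 passed. Among the 6830 probes with no gene name, 150 were higher and 179 lower in KO by 2-fold or more (4.82%).

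**Figure D4:**
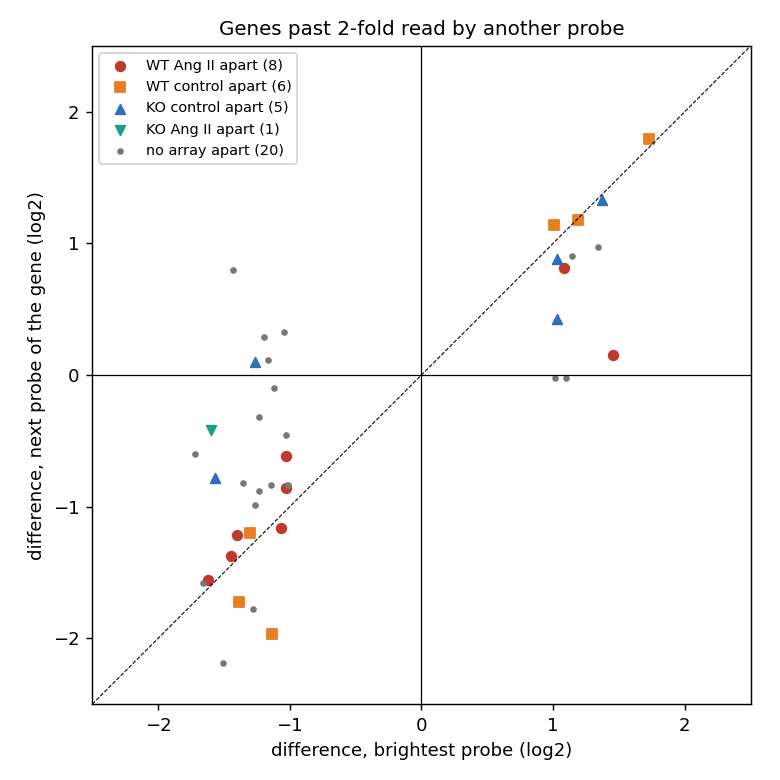
Difference of responses (log2) read by the brightest probe (horizontal axis) and by the next probe (vertical axis) of the 40 genes past 2-fold that have another measured probe, marked by the array that stood apart; the dashed line marks equal values. The 8 genes with WT Ang II apart and the 6 with WT control apart have the same sign on both probes.

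The 6 largest differences with the WT Ang II array apart and high were those of Ccl5, Ptges, Fbxo27, Cpxm1, Gbp5 and Il6. Ccl5, a chemokine that attracts T cells, stood at 2.60, 4.48, 2.97 and 2.51, so the WT Ang II array was alone high and the other 3 lay close together. Its difference was -2.34 ± 0.29 (technical error). Ptges, the inducible prostaglandin E synthase, read 3.03, 4.20, 3.30 and 2.48, and its difference was -1.98. The F-box protein Fbxo27 was at 0.06, 1.30, 0.08 and -0.63, with a difference of -1.95. The peptidase-like secreted protein Cpxm1 stood at 0.72, 2.22, 0.90 and 0.45, with a difference of -1.94. Gbp5, an interferon-induced GTPase of inflammasome assembly, read 3.78, 5.22, 3.08 and 2.65 with a difference of -1.86; both of its KO levels lay below both WT levels. Il6 read 0.13, 1.71, 0.45 and 0.19 with a difference of -1.84 ± 0.30. In all 6 genes the WT Ang II level was the highest of the 4, as the pattern requires, and each KO response was negative, between -0.26 and -0.82.

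Of 31 cytokine and chemokine genes measured, 15 were lower in KO by 2-fold or more (48.4%, against 2.87% of all genes for that direction) and 0 were higher. Their median difference was -0.998, against -0.05 for all genes, with medians of 0.75 for the WT response and -0.18 for the KO response. In 11 of the 15 the WT Ang II array stood apart, and 23 of the 31 were highest there. Cxcl1 read 5.56, 7.25, 5.90 and 5.82, a difference of -1.76. The neutrophil growth factor Csf3 read 2.73, 3.78, 3.01 and 2.46 (-1.60), and the monocyte chemokine Ccl7 4.14, 5.20, 3.93 and 3.45 (-1.54). Only Csf1, the macrophage growth factor, lay above 0 among the 31, at 0.02, and was named after its value was seen. The median of the list was between -0.71 (normexp background correction) and -1.001 (the authors' deposited table) over the settings tried, and 9 of the 15 passed 2-fold with normexp.

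The interferon response list, genes such as antiviral effectors and guanylate-binding proteins, had 9 of 33 measured members lower in KO by 2-fold or more (27.3%, against 2.87% of all genes) and 0 higher, with a median difference of -0.71; with normexp 6 were lower. All 33 differences lay below 0 and all 33 WT responses above 0, whereas 9 KO responses lay above 0. WT Ang II was the highest array for 26 of the 33, and WT control was the lowest for 21. Without Ang II the median of KO minus WT over these genes was 0.20, and with Ang II it was -0.57. Bst2, the membrane protein that tethers budding virus, stood at 3.15, 4.82, 4.20 and 3.44. Its difference of -2.43 ± 0.29 is made of a WT response of 1.67 and a KO response of -0.76, and no array stood apart, because the KO control level was raised as well. Usp18, a protease that removes the interferon-induced modifier ISG15, read 0.99, 2.47, 1.37 and 1.21 (difference -1.64). Ifit3 read 0.92, 2.37, 1.55 and 1.44 (-1.56), and Oas1a 0.83, 2.07, 1.41 and 1.20 (-1.45), with -1.37 on its other probe. For these 3 genes the WT Ang II array was the high one and stood apart.

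Genes of MHC class I loading and the immunoproteasome followed the same direction, with 5 of 17 lower in KO (29.4%, against 2.87%), 0 higher and a median of -0.45. With normexp 1 was lower. The highest array was WT Ang II for 8 of the 17 and KO control for 8, and WT control was the lowest for 11. A low WT control array thus had a part in these differences as well as a high WT Ang II array. Tap1 read -1.01, 0.73, -0.12 and -0.40, a difference of -2.02, and its partner subunit Tap2 2.21, 3.23, 2.53 and 2.15, a difference of -1.40 (-1.22 on the other probe). The immunoproteasome subunit Psmb8 read 0.37, 1.51, 0.86 and 0.62 (-1.38), and the class I heavy chain genes RT1-N3 and RT1-S3 had differences of -1.36 and -1.03. RT1 genes are near copies of one another, so probes may share their signal. MHC class II genes did not share that direction: 4 of 5 lay above 0 with a median of 0.58 and 0 past 2-fold, and RT1-Da stood at -0.69, -0.86, -1.26 and -0.44. With the 5 class II genes, 4 had their highest level on KO Ang II.

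Among RefSeq promoters of 300 bases (250 before to 50 after the start), found for 7101 of the 8602 genes, the ISRE letters were present in 14 of 50 genes (28%) that had the WT Ang II array apart and were lower in KO. They were present in 220 of the 7101 (3.10%), in 0 of 20 genes with WT control apart and low, in 1 of 15 with KO control apart and high, in 8 of 109 (7.34%) with no array apart and lower in KO, and in 1 of 84 (1.19%) that were higher in KO. Of the 14 genes, 8 belonged to the interferon or MHC class I lists, and 6 of the 41 genes outside these lists held the motif. The interferon list itself held it in 19 of 27 promoters (70.4%). The NF-kB motif was present in 11 of the 50 (22.0%) and in 12.8% of all 7101, but also in 6 of 20 with WT control apart and low (30.0%), 22 of 109 with no array apart and lower in KO (20.2%) and 5 of 13 with KO control apart and higher in KO (38.5%). The AP-1 letters TGANTCA were present in 4 of the 50 (8%) and in 4.87% of all, and the CArG box in 0 of the 50 and 1.17% of all. The CRE was present in 3 of the 50 (6%) and in 3.31% of all, the E-box CACGTG in 1 (2%) and 9.70%, and the element CCACG of the unfolded protein response in 14 (28%) and 47.6%. All motifs were read on both strands, E-box matches also contain the hypoxia letters, and a match is a description of the letters only.

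Among genes with no array apart and a difference from the WT response, the largest lower values after Bst2 were those of Bid (-2.08), the pro-apoptotic BCL2 family member, Tap1, and the membrane protein Tmem35a (-1.78). Bid read -2.19, -0.76, -1.32 and -1.97. Uap1, an enzyme that makes UDP-N-acetylglucosamine, read 2.71, 3.92, 3.53 and 3.08, a difference of -1.66, with -1.58 on its other probe. The amino acid transporter Slc7a5 had a difference of -1.53. In each of these the KO control level lay above the WT control level, and KO Ang II lay below KO control. On the higher side stood Pcp4l1 (1.72), the focal adhesion protein Lims2 (1.44), the endothelial diaphragm protein Plvap (1.43), Armc7 (1.26), Mia (1.23) and Ap1s3 (1.17). Pcp4l1 read 1.18, -0.34, 0.24 and 0.44 and Plvap 1.23, 0.08, 0.56 and 0.84, so WT control was the highest array for both. With normexp 10 of the 52 lower and 2 of the 17 higher genes of this kind passed 2-fold: Bst2 (-2.32) and Uap1 (-1.58) did, whereas Bid was at -0.53, Tap1 at -0.87, Tmem35a at -0.89, Slc7a5 at -0.34, Pcp4l1 at 0.89 and Plvap at 0.69.

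The 13 genes with the WT Ang II array apart and low were dimmer, with 9 of 13 in the dimmest bin. They were led by the pseudouridine synthase gene Rpusd2 (1.57), the 18S ribosomal RNA Rn18s (1.56) and the chromatin protein Baz2b (1.5). Rn18s read 2.87, 1.40, 2.47 and 2.56. The ribosomal RNA signal was thus lowest on the WT Ang II array, the array on which the inflammatory genes were high, and its part in their values was not tested. The pyrimidine synthesis enzyme Dhodh read 0.51, -0.37, 0.72 and 1.30, a difference of 1.46, with 0.15 on its other probe. Slmap (1.32) and 6330403K07Rikl (1.31) completed the 6 largest.

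The WT control array stood apart and low in 24 genes. By the way these genes were chosen, the WT level was higher with Ang II than without. For the same reason the KO level without Ang II was above the WT level without it. Nr4a1, an orphan nuclear receptor of the immediate early genes, stood at 3.57, 4.79, 4.79 and 4.23: WT control was the low array, and WT Ang II equalled KO control. Its difference was -1.78. Nr4a2 read 3.94, 4.85, 5.07 and 4.60 (difference -1.38, and -1.73 on the other probe), and Nr4a3 1.85, 2.65, 3.24 and 2.90 (-1.14). The phosphodiesterase Pde10a read 2.27, 3.20, 3.94 and 3.31 (-1.56). Gdf15, a stress-induced cytokine, read 2.32, 4.22, 3.34 and 3.68, a difference of -1.56 with responses of 1.90 in WT and 0.34 in KO. Stc1, a secreted glycoprotein, read 0.50, 1.95, 1.60 and 1.48 (-1.57), Acod1, the enzyme that makes itaconate, -2.68, -0.85, -1.48 and -1.46 (-1.80), and Dhrs7b had a difference of -1.63. For the 24 genes as a group, the median of KO minus WT was 1.09 without Ang II and -0.23 with it. The choice of genes fixes the value without Ang II as positive and as the larger in size.

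Immediate early genes as a list had 4 of 19 lower and 2 higher in KO (31.6% past 2-fold, against 4.14%), and 2 and 1 with normexp. Besides the 3 Nr4a genes, the transcription factor Klf4 was lower (4.78, 5.55, 5.18 and 4.84, difference -1.11). The higher genes were the stress-induced factor Atf3 at 4.55, 3.97, 3.89 and 4.72 (1.41) and the AP-1 subunit Jun at 4.71, 3.79, 5.26 and 5.42 (1.08; named after its value was seen). WT control was the lowest array for 13 of the 19. Genes that regulate NF-kB or bind leukocytes had a median of -0.70, with 3 of 19 lower (15.8%, against 2.87%) and 0 higher, and WT control was the lowest array for 12. Tnfaip2 read 1.59, 2.44, 1.97 and 1.28 (-1.53), the costimulatory receptor Cd40 -0.55, 0.63, -0.55 and -0.69 (-1.33) and the NF-kB inhibitor Tnip1 -0.46, 0.64, 0.36 and 0.25 (-1.22). WT Ang II stood apart for Cd40 and WT control for Tnip1. Nfkb1 itself was at -0.95, and at -0.32 on its other probe, and the adaptor Traf1 at -0.90. With normexp the list median was -0.35 and 1 gene was lower.

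The WT control array was apart and high in 19 genes, which included the Wnt antagonists Sfrp4 and Sfrp1 and the muscle filament gene Des. Sfrp4, a secreted Wnt antagonist, stood at 3.43, 1.54, 0.37 and 0.47, a difference of 1.98 ± 0.30. Its relative Sfrp1 stood at 1.63, 0.60, 0.11 and 0.81, a difference of 1.73, and its other probe gave 1.79. Des, the intermediate filament of muscle, was at 3.73, 2.22, 2.62 and 2.81 (1.70), and the chemokine Cxcl14 at 1.27, -0.69, -1.34 and -1.64 (1.65). Fam13a (1.45) and the phosphodiesterase Pde2a (1.29) completed the 6 largest. In all 6 genes both KO levels lay below the WT control level, as the pattern requires. The median of KO minus WT over the 19 was -1.30 without Ang II and -0.02 with it. Here too the choice of genes fixes the value without Ang II, as negative and as the larger in size. Among Wnt ligands and antagonists, 2 of 11 were higher (Sfrp4, Sfrp1) and 2 lower: Nkd2 at -1.37, where KO control was the high array, and Wnt5b at -1.24. In all 36.4% passed 2-fold, against 4.14% of all genes, with a median of -0.03. With normexp 2 were higher and 0 lower.

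Of the smooth muscle contractile genes 3 of 26 were higher in KO (11.5%, against 1.27% of all genes) and 0 lower, with a median of 0.05; with normexp 1 was higher. The higher members were Pcp4l1, Des and the calcium pump regulator Pln at 0.24, -0.49, -0.53 and -0.17 (1.10, but -0.02 on its other probe). The 7 defining smooth muscle markers were all measured, and 0 passed 2-fold. Myl9 read 2.58, 3.33, 3.63 and 3.76 (-0.62), Acta2 2.76, 3.05, 3.52 and 3.45 (-0.36) and Tagln 3.23, 3.08, 3.31 and 3.66 (0.50). Their summed signal was 7754, 8093, 8541 and 10444, and their median difference of -0.36 became 0.14 when only genes of at least median signal were used.

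The KO control array stood apart in 32 genes. In 17 it was high, and 14 of these belonged to the dimmest bin. Ptges3l1 read -2.15, -1.99, 0.08 and -1.88 (difference -2.12 ± 0.43), Prp2 -2.49, -2.14, -0.48 and -2.06 (-1.93), and sepiapterin reductase Spr -1.98, -1.96, -0.75 and -2.20 (-1.48). The cartilage transcription factor Sox9 was at -2.16, -1.42, -0.57 and -1.40 (-1.57, and -0.78 on its other probe). Nckap5l (-1.59) and Ms4a10 (-1.45) completed the 6 largest. KO control was the high array in all 6. With normexp background correction none of the 6 kept a 2-fold difference, the largest being -0.56 for Ptges3l1.

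In 15 genes the KO control array was low, and 3 of them were genes of hypoxia and glycolysis, Ankrd37, Pfkfb3 and Bnip3. Ankrd37 stood at 3.94, 3.27, 2.26 and 3.22, with responses of -0.66 in WT and 0.97 in KO and a difference of 1.63. Pfkfb3, which drives glycolysis through fructose 2,6-bisphosphate, read 7.57, 7.30, 6.23 and 6.98 (1.03, and 0.88 on its other probe). The mitophagy receptor Bnip3 read 6.55, 6.37, 5.32 and 6.15 (1.03, and 0.42). Outside the 15, the pyruvate dehydrogenase kinase Pdk1 read 2.86, 2.60, 1.87 and 2.51 (0.90, and 0.79) and did not pass 2-fold. Cited2, an inhibitor of hypoxia-inducible factor, read -0.65, -1.36, -2.03 and -0.94 (1.81, and 0.49 with normexp), with no array apart. KO control was the lowest array for each of the 5. Over the list, 4 of 33 were higher in KO (12.1%, against 1.27%) and 0 lower, with a median of 0.33, and the lowest array was KO control for 26. All 33 KO responses lay above 0, and the median of KO minus WT was -0.60 without Ang II and -0.06 with it. The hypoxia letters ACGTG were present in 17 of 30 promoters of this list (56.7%), in 5 of 13 genes that had KO control apart and were higher in KO (38.5%) and in 26.1% of all genes.

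Others with KO control low were the RNA-binding protein Mex3b (1.65), the receptor Adgrg7 (1.47), Prelid2 (1.37, with 1.33 on its other probe), the complement receptor C5ar1 at -0.58, -1.09, -1.70 and -0.84 (1.37) and Ms4a6bl1 (1.34). Genes of the unfolded protein and integrated stress response had the same low array: KO control was lowest for 23 of 27, all 27 KO responses lay above 0, and 1 passed 2-fold upwards (3.70%, against 1.27% of all genes). That gene was the kinase-like Trib3 at 3.74, 3.22, 3.29 and 3.80 (1.03), for which both WT Ang II and KO control were low. The median of the list was 0.18. Macrophage markers stood beside both lists. Of the 12 of 19 macrophage markers measured, KO control was the lowest array for 11, and their summed signal was 4031, 4829, 1782 and 2378. Their median difference was 0.11 and 0 passed 2-fold; their part in the other values was not tested. In RNA from whole vessels, fewer cells of a type and less RNA per cell cannot be told apart.

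Of the 46 differences of KO origin, 25 had the KO control array apart, 9 had the KO Ang II array apart and 12 had none apart. In all, the KO Ang II array stood apart in 14 genes, 12 of them low; 9 were of KO origin and 5 of both, and 11 lay in the dimmest bin. Cyp7b1, an oxysterol hydroxylase, read 0.29, 0.83, 0.78 and -0.47 (difference -1.80), the chaperone Dnajc25 0.48, 0.68, 0.22 and -1.23 (-1.65), and the prohormone convertase Pcsk1 0.45, 0.23, 0.85 and -0.97 (-1.60, but -0.42 on its other probe). Clic6 (-1.59), Hsd3b7 (-1.50) and Zdhhc2 (-1.45) followed, of which Clic6 and Hsd3b7 were of both origins. KO Ang II was the low array in all 6. The 2 genes with KO Ang II high were Gtf2a1 (1.31) and Calml4 (1.28), of both origins and in the dimmest bin. Under normexp 0 of the 14 kept a 2-fold difference.

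In 12 genes the difference came from the KO response with no array apart, and 0 of the 12 kept 2-fold with normexp. Lgals5, a galectin, read -0.39, -0.94, 0.45 and -1.83, a difference of -1.72 with a KO response of -2.27 and a WT response of -0.56, and a normexp difference of -0.56. Its other probe gave -0.60, but there the level was higher with Ang II in both genotypes (responses of 1.27 in WT and 0.66 in KO). The ketone-body enzyme gene Oxct2b read 0.11, -0.40, 0.74 and -1.41 (-1.64), the homeobox gene Uncx 0.52, -0.29, 0.91 and -1.29 (-1.38), and the preadipocyte factor Dlk1 -0.24, -0.99, 0.14 and -1.99 (-1.38). On the probes used, these 4 were lower with Ang II in both genotypes, more so in KO, and highest on KO control. The gastrin gene Gast (-1.57) and the Nogo receptor Rtn4r (-1.22) were the other lower ones named. The 3 higher genes were Kpna4 (1.29), Kbtbd3 (1.04) and Ppp1r9a (1.02, but -0.03 on its other probe).

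Both responses, in opposite directions, made 110 differences with no array apart, and with normexp 4 of the 70 lower and 7 of the 40 higher ones passed 2-fold. Nos2, the inducible nitric oxide synthase, stood at -0.94, 0.03, 0.59 and -0.73: the response was 0.97 in WT and -1.32 in KO, and the difference was -2.30 ± 0.32. Pla2g4a, the phospholipase that releases arachidonic acid, stood at -0.29, 0.74, 0.09 and -0.71 (-1.83). The phosphatase Dusp13b stood at -1.63, -0.83, 1.01 and -0.25 (-2.06). Bcar3 (-1.79), the carbonic anhydrase Car4 (-1.68) and Golga7b (-1.67) followed. Nos2 and Dusp13b were highest on KO control, whereas Pla2g4a was highest on WT Ang II. On the higher side, Klhdc8b stood at -0.78, -2.30, -2.02 and -1.23 (2.31 ± 0.47), the transcription factor Tbx1 at 1.05, 0.27, -1.53 and -0.42 (1.90), and G0s2, an inhibitor of lipolysis, at 4.18, 3.40, 2.03 and 2.91 (1.67). Gpatch4 (1.70), the p53 target Tp53inp1 (1.66) and Cited2 completed the group. With normexp the difference was -0.98 for Nos2, -0.94 for Pla2g4a, -0.76 for Dusp13b, 0.54 for Klhdc8b and 0.69 for Tbx1, so these lost 2-fold, while G0s2 kept it at 1.58.

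**Figure D5:**
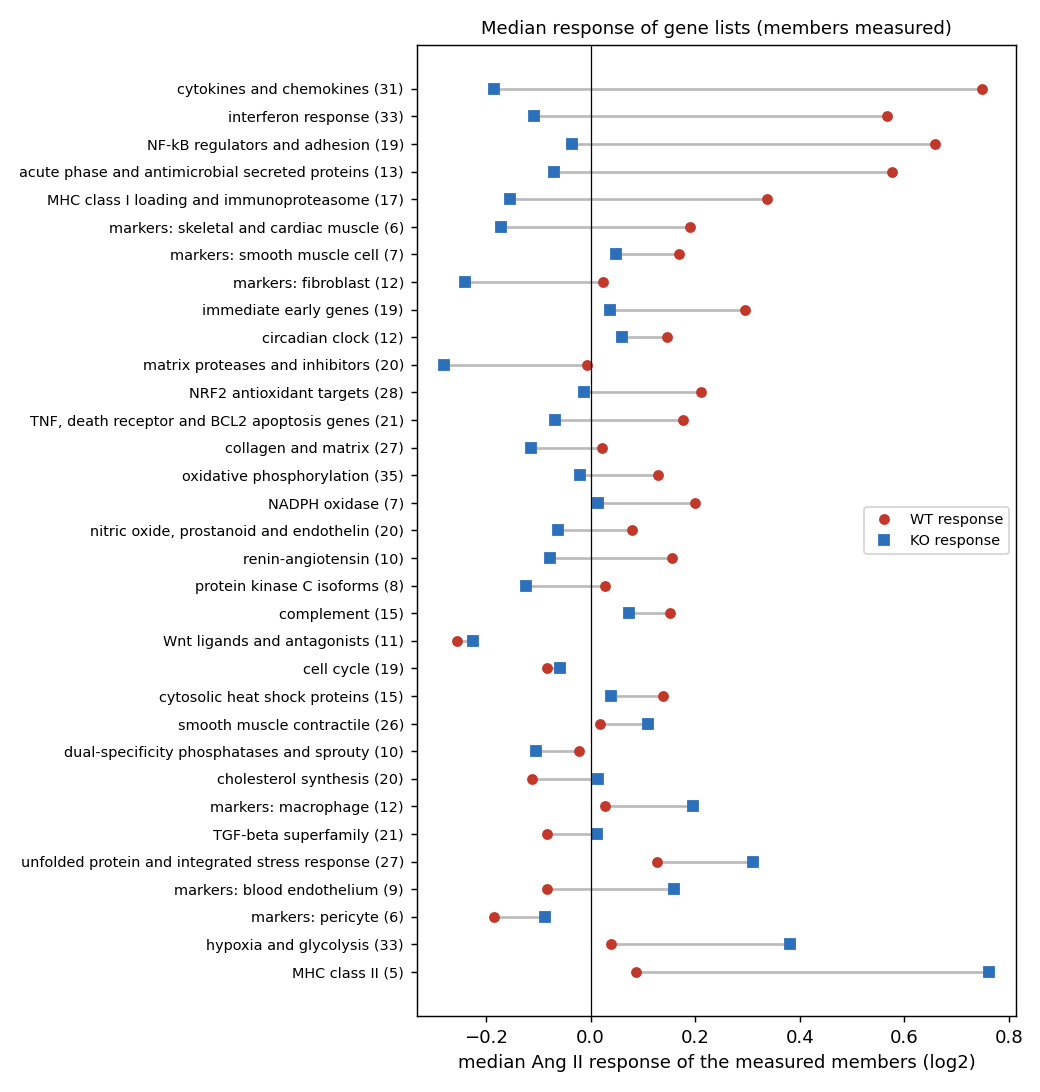
Median Ang II response (horizontal axis, log2) of the measured members of each gene list in WT (circles) and KO (squares), with the number measured in brackets and lists ordered by median difference. Cytokines and chemokines lie at 0.75 in WT and -0.18 in KO; hypoxia and glycolysis genes lie at 0.04 in WT and 0.38 in KO.

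Receptors and enzymes of the renin-angiotensin system did not pass 2-fold: 0 of 10 measured, with a median of -0.10. Atp6ap2, the prorenin receptor, read 0.85, 1.62, 0.58 and 0.49 (-0.86, but -0.28 on its other probe), and angiotensin-converting enzyme Ace 1.99, 2.63, 2.40 and 2.26 (-0.77, and -0.78). Of the other protein kinase C genes and their relatives, 0 of 8 passed, from Prkd1 at -0.91 to Prkd3 at 0.58; Prkcd was at -0.31 and Prkci at -0.11. Among NADPH oxidase genes 1 of 7 passed (14.3%, against 4.14% of all genes). This was Nox4, the constitutively active catalytic subunit, which read -0.58, -1.30, 0.22 and 0.50 and had a difference of 1.01. Its level was lower with Ang II in WT and both KO levels lay above both WT levels; with normexp its difference was 0.44. The remaining 6, Ncf4, Cyba, Cybb, Rac2, Rac1 and Ncf1, had differences from -0.48 to -0.07.

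Secreted and matrix genes were mixed. Matrix proteases and their inhibitors had 6 of 20 lower (30%, against 2.87% of all genes) and 0 higher, with a median of -0.25. With normexp 4 were lower. The median response was -0.01 in WT and -0.28 in KO. KO control was the highest array for 10 of the 20 and WT Ang II for 4. The proteoglycan-cleaving Adamts9, Adamts4 and Adamts1 differed by -1.43, -1.24 and -1.19, and the plasminogen activators Plau and Plat by -1.31 and -1.23. Adamts1 read 5.45, 6.40, 5.40 and 5.16 and Plat 5.38, 6.23, 5.27 and 4.88, both with WT Ang II apart. The collagenase Mmp13 read 1.65, 1.34, 2.73 and 1.32 (-1.11; named after its value was seen), and there KO control was the high array. Acute phase and antimicrobial proteins had 3 of 13 lower (23.1%, against 2.87%), with all 13 below 0 and a median of -0.57: Acod1, Orm1 (-1.04) and Lcn2 (-1.02). With normexp 0 of the 13 passed, and these were at -0.35, -0.43 and -0.43. Of the TGF-beta superfamily, 3 of 21 were lower, the activin antagonist Fst at 4.02, 5.18, 4.52 and 4.06 (-1.62, and -1.55 on its other probe), Gdf15 and Bmp5 (-1.05). With 1 higher, 19.0% passed 2-fold, against 4.14% of all genes, and the median was 0.15. Collagen and matrix genes had 1 lower (Fbln5, -1.17) and 1 higher (Loxl2, 1.02) of 27 (7.41%, against 4.14% of all genes), and 0 with normexp. NRF2 antioxidant targets had 0 of 28 past 2-fold, although 25 lay below 0 (median -0.22), and oxidative phosphorylation had 0 of 35 (median -0.17).

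Complement genes had 2 of 15 lower, C2 at 0.41, 1.52, 1.10 and 0.94 (-1.27) and factor B, Cfb (-1.03), and 1 higher (C5ar1). In all 20.0% passed, against 4.14% of all genes, and the median was -0.05 with 8 below 0 and 7 above. Genes of apoptosis had 2 of 21 lower (9.52%, against 2.87% of all genes), Bid and Casp8 (-1.03, and -0.45 on its other probe), with a median of -0.21. With normexp 0 genes of the complement and apoptosis lists passed. Lists with 0 or 1 gene past 2-fold included cell cycle (1 of 19, Ccne2 at 1.21), the circadian clock (1 of 12, Cry2 at -1.10), cytosolic heat shock proteins (0 of 15) and the MAP kinase phosphatases and sprouty genes (0 of 10). The shares were 5.26% for cell cycle and 8.33% for the clock, against 4.14% of all genes. In the list of nitric oxide, prostanoid and endothelin genes, 2 of 20 were lower (Nos2 and Ptges), against 2.87% of all genes, and 0 higher. With normexp 1 of the 20 was lower, Ptges at -1.42, while Nos2 was at -0.98. The inducible cyclooxygenase Ptgs2 read 0.68, 1.41, 1.49 and 1.49 (-0.73) with WT control apart and low.

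Markers of other cells bear on these lists and are given as values. Their part in the differences was not tested. Summed signals are processed signals not scaled to the arrays' 75th percentiles, which were lower on both KO arrays than on both WT arrays. The sums therefore read lower on the KO arrays than scaled levels would. Of 10 neutrophil markers, 1 was well above background on all arrays, Fcgr3a at -1.05, 0.21, -1.15 and -0.95 (-1.06); S100a8, S100a9 and Mpo were not. Of 14 T and NK cell markers 2 were measured, Cd3d (0.13) and Cd4 (0.02), which differed little between arrays. Fibroblast markers, 12 of 16 measured, had a summed signal of 36492, 40517, 24610 and 23302 and a median of -0.32. Past 2-fold were 2 (16.7%, against 4.14% of all genes): the elastic fibre protein Mfap4 at 0.76, 2.15, 1.05 and 1.14 (-1.30) and the fibroblast marker Pi16 at 1.07, 1.85, 1.57 and 1.10 (-1.24). Blood endothelial markers, 9 of 15, summed to 2405, 2419, 1551 and 1815 and had a median of 0.25, with the VEGF receptor Kdr past 2-fold at 2.16, 0.91, 0.67 and 0.51 (1.09, WT control apart and high). Pericyte markers, 6 of 8 measured, had a median of 0.28, with 4 above 0 and 2 below. The 1 past 2-fold was the channel gene Kcnj8 at 5.28, 6.19, 5.83 and 5.49 (-1.24), opposite in sign to most of the list. Of 7 mast cell markers 1 was measured, the receptor Kit at 1.96, 1.11, 0.24 and 0.77 (1.37). Haemoglobin and other erythrocyte markers, 4 of 8, summed to 1142, 2142, 972 and 1520 and were highest on WT Ang II for all 4, with a median difference of -0.23. Mesothelial markers were measured in 0 of 6.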

How the data were processed

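Total RNA labelled with Cy3, per the labels' protocols, was hybridised to 1-colour Agilent arrays, 4 on 1 slide. The authors deposited scanner intensity values for 45598 probes; the processed signal is background-subtracted and spatially detrended, per the file headers, and flags are 0 or 1. The submitters' processing notes name Feature Extraction 12.1.1.1 and the file headers 10.7.1.1. The authors' deposited table holds log2 values, each column within 0.01 of log2 processed signal plus a constant for 98.3% to 98.4% of probes; its medians were 2.29, 2.22, 2.27 and 2.11. What set the constants is unknown here. It was used as an alternative only.

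Outlier-flagged spots (301 to 372 per array) were left out, which dropped 4 probes, and the others averaged per probe, taken as log2 minus the array's 75th percentile. A probe counted as well above background if at least 50% of its unflagged spots did. Names came from RefSeq's GRCr8 gene table by accession. Promoters were matched by symbol. Tools were Python 3.11.15, pandas 2.3.3, numpy 2.4.6, matplotlib 3.10.9, and R 4.3.3 with limma 3.58.1 for normexp and quantile normalization. The classification was tested on simulated data. The size rule was 2-fold; no test was possible.

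Members and gene lists were chosen with earlier results of these data known. Named genes are Prkcb, the 6 largest differences per direction for each pattern of origin and array apart, up to 5 members of each described list, and any gene of the NADPH oxidase, renin-angiotensin and protein kinase C lists, with some left out for length; others are marked where they appear. A gene counted as having another probe only where that probe was well above background on all 4 arrays. The number of arrays limits the precision. A few members of the gene lists are not reported here.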

Additional observations from a re-analysis of the deposited data

Results flagged for a closer look

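In 17 of the 33 gene lists with at least 5 measured members the median responses of the genotypes lay on opposite sides of 0. The medians over all 8602 genes did so too, at 0.04 in WT and -0.01 in KO. Scaled by the 75th percentile of probes well above background on all arrays, both were below 0 (-0.0072 and -0.0044). The count of 17 thus depends on the scaling. In 3 of the 17 the median difference was also at least 1.5-fold; no difference was tested. Cytokines and chemokines had a median difference of -0.998 (0.75 in WT, -0.18 in KO), the interferon response -0.71 (0.57 and -0.11), and NF-kB regulators and adhesion genes -0.70 (0.66 and -0.04).

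Genes not well above background on all 4 arrays were outside the comparison and were chosen here after their values were seen. On WT Ang II alone, 12 named genes were well above background and at least 2-fold over every other array, where a dim array counted at its own level or at the lowest level of any probe well above background there, whichever was higher. Edn1, the precursor of endothelin-1, had processed signals of 3.21 and 48.2 in WT (control, then Ang II) and 1.90 and 3.72 in KO, at least 6.45-fold higher on WT Ang II. The matrix protease Mmp9 read 2.91, 15.6, 5.67 and 5.81 in the same order (at least 2.09-fold), and the bradykinin receptor Bdkrb2 5.29, 17.3, 2.06 and 1.89 (at least 2.31-fold). On KO Ang II alone 6 genes did so, led by Irs3 at 4.16, 1.94, 2.94 and 40.5 (at least 6.48-fold). The control arrays, without Ang II, gave 21 such genes for WT and 30 for KO, so the Ang II arrays did not exceed them in number.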

How the results depend on the processing

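No paired analysis was possible because each group has 1 array and all carry the same replicate number; for the same reason no replicate could be left out. Signal over background limits the dim genes. Normexp was run on median spot signals, since mean signals were not in the files, and this and the requirement that every spot be well above background were chosen after seeing the data. No sign of the 356 differences changed under any setting that measured the gene. Changed rules could not change a sign, because they keep each value. The other scalings shifted the median of all genes only from -0.0482 to -0.0107, -0.0002 and -0.0132, far less than 2-fold. A second probe, where measured, had the same sign in 33 of 40 genes. Under quantile normalization, both other scalings, the authors' table and kept outlier spots together, 216 of 247 lower and 105 of 109 higher genes kept 2-fold; with normexp added, 46 and 16 did, among them 26 of 76 with WT Ang II apart, 14 of 43 with WT control apart, 2 of 32 with KO control apart, 0 of 14 with KO Ang II apart and, with none apart, 10 of 69 from WT, 0 of 12 from KO and 10 of 110 from both.

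Counts are given as lower and higher in KO, then origin WT, KO and both, then control and Ang II array of WT, the same of KO, and no array apart (247, 109; 175, 46, 135; 43, 76, 32, 14, 191 as reported). With normexp they were 50, 20; 51, 2, 17; 9, 30, 4, 0, 27. With genes of at least median signal they were 85, 28; 77, 3, 33; 19, 38, 4, 0, 52. At 1.5-fold they were 883, 536; 703, 197, 519; 102, 196, 57, 28, 1036, and at 3-fold 37, 14; 22, 8, 21; 7, 13, 5, 4, 22. Requiring only 2 arrays above background gave 388 and 225, with KO and both at 153 and 216, and WT control, KO control and KO Ang II apart in 84, 84 and 58. Stricter shares (0.75 and 0.25) gave 114 from WT and 209 from both. A gap of 2 times the range left 19, 34, 17 and 4 with those arrays apart, in that order. Fewer or more genes tested, or the rule itself, set these counts except for normexp. There the added offset of 50 shrinks the log2 ratios of dim genes, and its share in the lost calls was not tested. Larger list medians that changed sign were the circadian clock (-0.27; 0.0044 with normexp, 0.10 with bright genes), smooth muscle markers (-0.36; 0.14 with bright genes) and Schwann cell markers (-0.28; 0.26 with 2 arrays). Medians near 0 also changed sign in at least 1 setting: complement (-0.05), Wnt (-0.03), heat shock (0.04) and cell cycle (0.01).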
